A study of Drosophila melanogaster with 4 samples.

Results

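The Homothorax binding peaks of the Wnt gene cluster around wg were examined in whole Drosophila melanogaster embryos. The members are all peaks on chromosome arm 2L with midpoints between positions 7230000 and 7390000 of FlyBase release 5, an interval of 160 kb. Its limits are defined by position and not by peak values, although members were chosen with earlier results of these data known. The interval holds 23 of the 6207 peaks in the authors' table, and 23 of the 1376 on 2L. The series holds 2 Homothorax chromatin immunoprecipitation (ChIP-seq) libraries and 2 input DNA libraries. The ChIP libraries were made with an unpurified guinea pig serum against the full-length His-tagged protein. The peak table is given for the series as a whole and names no library. All 4 libraries are of the y cn bw sp strain, labelled embryo 0 to 8 h with unknown sex. Its listed alleles are y[1], cn[1], bw[1] and sp[1], together with Rh6[1], GstD5[1], MstProx[1] and LysC[1], with lab[R4.2], CG33964[R4.2] and oc[R3.2], and with Gr22d[1] and Gr22b[1]. The shared protocol text speaks of laying from 8 to 16 h, which differs from the stage label. The input libraries carry the same genotype, and the embryos were whole, so no cell type can be assigned to a peak.

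Wnt proteins are secreted, lipid-modified ligands that bind Frizzled receptors on nearby cells. In the pathway best known for wg, this stabilizes Armadillo, the fly β-catenin, which then activates target genes with the DNA-binding protein Pangolin. The gene wg is a segment polarity gene of the embryonic epidermis and also patterns the midgut, where its expression in the visceral mesoderm depends on the Hox protein Abdominal-A and on Extradenticle. Homothorax is a homeodomain protein that binds Extradenticle, allows it to enter the nucleus and joins it as a cofactor of Hox proteins. In the wing hinge of the larva, wg and hth are known to maintain each other's expression.

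The 4 Wnt genes all matched the RefSeq gene table, which describes release 6 of the genome and was used only for names and order. Ordered by their starts along 2L, they are Wnt4, wg, Wnt6 and Wnt10. Wnt4 encodes a ligand with roles in cell migration and in the targeting of retinal axons. Wnt6 is expressed much like wg in imaginal discs, and Wnt10 is expressed in the embryonic mesoderm, nervous system and gut. Between these genes the table lists 2 others, CG31909 between Wnt4 and wg and lncRNA:CR45304 between wg and Wnt6. The nearest protein-coding neighbours are CG13786 before Wnt4 and ninaC, which encodes a photoreceptor myosin, after Wnt10. Because the peaks are on release 5, no peak is assigned here to wg, Wnt4, Wnt6 or Wnt10, nor to an exon, an intron, a UTR or a promoter of any gene. The link between the interval and the 4 genes is that of the position rule itself, and no base sequence of the peaks was used here.

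Homothorax peaks occupied the middle of the interval and fell into 4 separate groups. The first peak starts at 7267681 and the last ends at 7361811, an extent of 94.1 kb in which peaks cover 19.0% of the bases. With groups divided wherever more than 5 kb lack a peak, there were 5 peaks, then 14, then 3 and finally 1 along the arm. The 3 stretches that divide them are 12.7, 25.8 and 17.8 kb long. Of 16 consecutive bins of 10 kb, 8 held no peak centre, and the 3 bins from 7290000 to 7319999 held all 14 peaks of the largest group.

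**Figure D1:**
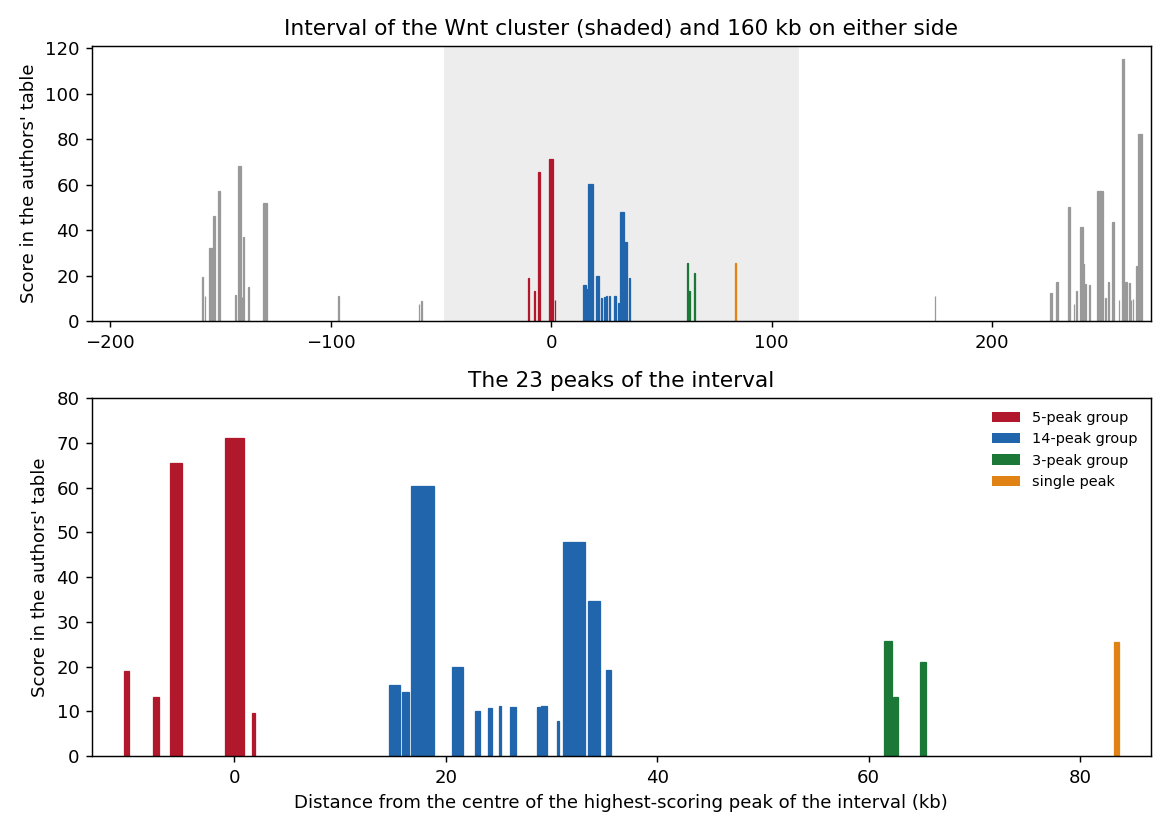
Peaks of the interval and its surroundings, with the distance in kb from the centre of the interval's highest-scoring peak on the x axis and the authors' score on the y axis. Each bar spans 1 peak, with a thin outline, grey bars lie outside the interval, and the 23 coloured peaks form groups of 5, 14, 3 and 1 with both scores over 65 in the 5-peak group.

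The 2 highest scores of the interval belonged to the 5-peak group, at 2L 7267681 to 7280045. The score is the authors' own value for each peak. Its scale is not stated in the file or the labels, so it serves only to rank and describe peaks. There is 1 value per peak for the whole series, so no replicate error can be attached to it and neighbouring ranks cannot be told apart. The top peak of the interval, at 7277204 to 7279086, was 1.88 kb wide and scored 71.14, the 477th highest score of the list. The next, at 7271999 to 7273149, was 1.15 kb wide and scored 65.59, rank 549. These peaks are separated by 4.05 kb, the longest stretch without a peak inside the group. The other 3 peaks of the group were narrower and lower. The first peak of the interval, at 7267681 to 7268146, scored 19.10, the peak at 7270450 to 7271044 scored 13.14, and the last of the group, at 7279807 to 7280045, scored 9.61.

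The 14-peak group, at 2L 7292771 to 7313750, had a high-scoring peak near its start and another near its end. Between them lay a row of low-scoring peaks, called weak below for their scores alone. It is 21.0 kb long, 53.6% of it lies inside peaks, and it contributes 62.8% of all bases under peaks in the interval. The widest peak of the interval, at 7294842 to 7296975, lies near its start, with a width of 2.13 kb and a score of 60.29. Directly before it, 192 bp away, stands a peak that scored 14.32, and 173 bp before that one lies the group's first peak, at 7292771 to 7293794, which scored 15.95. After it follows the peak at 7298699 to 7299787, with a score of 19.86. The peak near the group's end, at 7309268 to 7311346, was 2.08 kb wide and scored 47.87. Behind it came 2 more. That at 7311628 to 7312744 scored 34.74, and that at 7313291 to 7313750, the last of the group, scored 19.19.

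Between 7300942 and 7308891 the same group held 7 weak peaks, singled out after their values were seen. Their scores were 10.08, 10.81, 11.28, 11.07, 11.04, 11.18 and 7.90 in order along the arm, and their widths ran from 234 to 596 bp. Of the 23 peaks of the interval, 8 lay in the lowest 25% of scores in the whole list, whose limit is 11.51. All 7 weak peaks were among these, which follows largely from their choice for low scores. The last of the 7, at 7308658 to 7308891, was both the weakest and the narrowest peak of the interval. Together with the peak scoring 19.86 the 7 weak peaks lie between the peaks scoring 60.29 and 47.87, whose facing edges are 12.3 kb apart.

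Beyond the 14-peak group, peaks were few and of middling score. The 3-peak group lies at 2L 7339585 to 7343545. Its first peak, at 7339585 to 7340381, scored 25.83, the next followed after only 56 bp and scored 13.30, and the last, at 7342961 to 7343545, scored 21.09. The single peak at 7361381 to 7361811 was 431 bp wide and scored 25.63. These 4 peaks all scored below 40, whereas the 5-peak group and the 14-peak group each held 2 peaks of 40 or more. Those are 40% and 14.3% of their peaks, against 17.5% of all peaks in the list. Counts this small describe nothing particular to a group. By median score the 3-peak group, at 21.09, and the single peak stood above the 14-peak group, at 12.80.

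Set against the whole list, the cluster's share of high scores was close to the list's. Of its 23 peaks, 4 scored 40 or more (17.4%), a share near the 17.5% of all peaks in the list. Scores of at least 60 belonged to 3 of the 23 (13.0%), against 10.3% of all peaks, and 2 of the 23 ranked in the top 10% of the list. A score of 100 or more was reached by 0 of the 23, against 4.32% of all peaks, and with so small a share in the list that count describes nothing particular to the cluster. The median score was 15.95 in the cluster, 17.07 for the other 1353 peaks on 2L and 16.93 for the whole list. The quartiles were 11.1 and 25.7 in the cluster, against 11.5 and 29.7 in the whole list. At or above the list's median score stood 11 of the 23 peaks.

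The median peak of the cluster was wider than that of the list, again as a description without a test. Median width was 585 bp in the cluster, 513 bp for the other peaks on 2L and 483 bp for the whole list. A width over 1 kb was held by 7 of the 23 peaks (30.4%), against 23.7% of the other peaks on 2L and 20.3% of all peaks. The widest peak of the cluster, 2.13 kb, was far below the 31.9 kb of the widest in the list. Wider peaks scored higher inside the cluster too, with a Spearman rho of 0.82 over its 23 peaks and 0.81 over all 6207. Peaks share the same libraries and the same caller, so these values describe the list only.

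**Figure D2:**
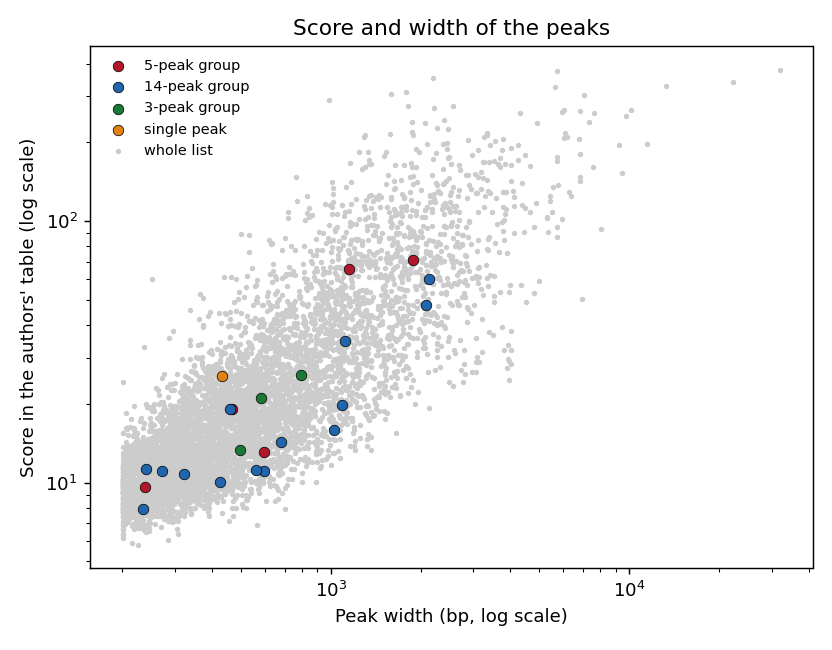
Peak width in bp on a log x axis against the authors' score on a log y axis, with the 23 peaks of the Wnt cluster coloured by group and all 6207 peaks of the list in grey. The cluster's points lie inside the grey cloud, with scores from 7.90 to 71.14, and several of the 14-peak group run along its lower edge.

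Each peak was then placed among the list's peaks within 10% of its own width. A score above more than 50% of those like-width peaks was held by 8 of the 23 cluster peaks (34.8%), against 50.2% of all peaks in the list. By group, 3 of 5 peaks of the 5-peak group stood above that mark, in the 14-peak group 2 of 14, in the 3-peak group 2 of 3, and the single peak did as well. The single peak at 7361381 had the highest standing of all, with a score above 90.4% of 670 peaks of like width. It was followed by the peak at 7271999 in the 5-peak group, with 80.8% of 308 below it. The 3 widest peaks of the 14-peak group stood below or near the middle, with 44.5% of like-width peaks scoring below the peak at 7294842, 30.9% below that at 7309268 and 48.7% below that at 7311628. The lowest standing, 5.64%, was that of a 596 bp peak at 7304228 to 7304823. The split into groups and this comparison come from the same peaks, so no test was made.

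**Figure D3:**
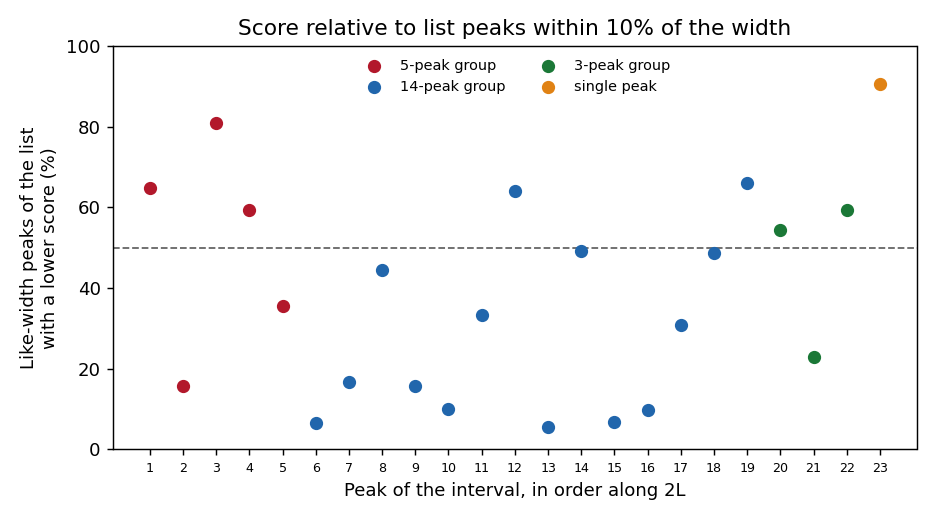
Share of list peaks within 10% of a peak's width that score lower than it, in percent, for the 23 cluster peaks in order along 2L, with a dashed line at 50%. Of the 14-peak group 2 points lie above the line, and the single peak is highest at 90.4%.

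The list holds 37 runs of 12 to 16 peaks on the 6 chromosome arms 2L, 2R, 3L, 3R, 4 and X, the 14-peak group among them. That group had the smallest share of peaks that scored above 50% of their like-width peaks, 14.3%, shared with no other of these runs. The median over all 37 runs was 43.8%. In the group, the peaks at 7306750 and 7311628 stood just under the 50% mark, at 49.1% and 48.7%, and no other mark was tried. The group's median score of 12.80 was also low, with 2 of the 37 below it and a median of 16.7 over the runs. Its top score of 60.29 was exceeded in 29 of them. In length, 21.0 kb against a median of 23.1 kb, the group exceeded 14 of the 37 runs. In cover, 53.6% against a median of 51.2%, it exceeded 25 of them. The range of 12 to 16 peaks was chosen after the group's size was known.

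By number of peaks, the interval stood high among stretches of its length. Of 736 windows of 160 kb tiled over the arms, 54 (7.34%) held more than 23 peaks and 3 held as many. The mean over these windows was 7.98 ± 9.92 peaks (SD, n = 736 windows) and the median 5. On 2L, 12 of 140 windows held more, and the median was 7. Peaks covered 11.2% of the interval, a value passed by 62 windows (8.42%), against a median of 1.78%. Windows that overlap the interval are included.

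**Figure D4:**
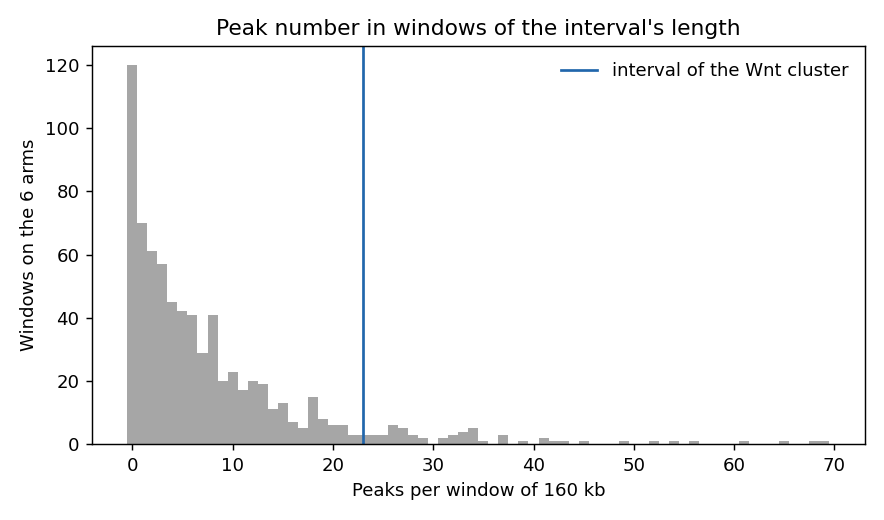
Number of peaks per 160 kb window on the x axis and number of windows on the y axis, for 736 windows tiled over the 6 arms. The line marks the 23 peaks of the Wnt cluster interval, which 54 windows exceed.

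Windows with a like number of peaks reached higher scores more often than not. Among 30 windows with 20 to 26 peaks, the top score had a median of 116.9 and exceeded the cluster's 71.14 in 25. Their median scores were like the cluster's, with 15 above its 15.95 and 15 not above it. The longest stretch without a peak was 37.7 kb in the interval, which is the part before its first peak, and had a median of 52.1 kb over these windows. The median gap was 0.90 kb over the 22 gaps between the cluster's peaks, against 1.64 kb over the 5888 gaps on the arms. Gaps under 1 kb made up 13 of the 22 (59.1%), against 41.7% on the arms. The 22 leave out the gaps before the first and after the last peak, while the arms include all such gaps. A stretch with many peaks has short gaps, so this spacing is not a trait apart from peak number.

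Stretches without a peak lay on both sides of the cluster's peaks. Before the first peak no peak was listed for 48.3 kb, and after the last for 90.3 kb. Of the 1975 gaps over 5 kb on the arms, which are those between runs, 30.9% were at least as long as the one before the cluster and 17.8% at least as long as the one after it. No peak lay close to the limits of the rule. The nearest midpoints inside were 37.9 kb from the lower limit, with a score of 19.10, and 28.4 kb from the upper limit, with a score of 25.63. Just outside, a 227 bp peak with a score of 9.13 lay 10.7 kb below the lower limit, and a 251 bp peak with a score of 11.07 lay 62.2 kb above the upper limit. The interval held 23 peaks, the 160 kb before it 14 and the 160 kb after it 23. Scores of 40 or more numbered 4 in the interval, 4 in the stretch before and 6 in the stretch after, where the top score was 115.24. In number of peaks the interval therefore equalled the stretch that follows it.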

How the data were processed

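Homothorax ChIP and input DNA libraries of whole embryos are represented by 1 peak table without values per library. Per the file headers, MACS wrote it on FlyBase release 5. Per the submitters' processing notes, CASAVA (1.7.0.2 and 1.7.0.3), BWA and MACS2 were used with the build BDGP5. Per the labels' protocols, fixation was in 1.8% formaldehyde (15 min). The deposited score is used as given by the authors. Pooling of replicates, the threshold and the filters are stated in neither file nor labels, and read depth is unknown.

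Width is end minus start plus 1 bp. Peaks were counted by midpoint, and windows were whole 160 kb tiles from position 1 to the last peak of an arm. No test over samples was possible. The counting steps were tested on simulated lists. Python 3.11.15, numpy 2.4.6, pandas 2.3.3, scipy 1.17.1 and matplotlib 3.10.9 were used. The peaks named are the 10 highest, the 3 widest, the first, the last and those beside the 3 longest gaps, and others were named after their values were seen. Members and lists were chosen with earlier results of these data known. Planned counts at Wnt pathway genes, and planned protein and promoter comparisons, were not run, since no release 5 annotation and no sequence were used here. Alternatives covered membership, score, merging, interval ends, run gap and tiling.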

Additional observations from a re-analysis of the deposited data

How the results depend on the processing

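Membership was the same 23 peaks by midpoint, by overlap of at least 1 bp, and with the interval shortened or lengthened by 10 kb at each end. The median score of 15.95 and the median width of 585 bp were therefore unchanged. The midpoint nearest to a limit lay 10.7 kb outside it, so these small changes could not alter membership. Larger changes of the limits were not tried. The covered share was 12.8% in the shortened and 9.93% in the lengthened interval, since its length alone changed. Among the 3107 peaks at or above the list's median score, the interval held 11 peaks, which covered 7.62% of it and had a median width of 1089 bp. Merging of peaks closer than 1 kb left 10 peaks with a median of 25.7 for the highest score in each, and joined 6 peaks into a stretch of 7001 bp from 7306750 to 7313750. With a gap of 2 kb ending a run there were 7 runs, and with 10 kb there were 4. By peak number the interval would rank 55th among the tiled windows, 51st with windows shifted by 80 kb and 58th among the higher-scoring peaks. Its rank after merging was not computed. Merged, the interval held 10 of 3744 peaks in the list, against 23 of 6207 before. Counts that include the weak peaks thus depend on the score threshold and on merging. No paired analysis was possible because every peak has a single value with no library named, which also leaves no replicate to omit. Limits of depth could not be set.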
